A study of Homo sapiens with 2 samples.

Results

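The genes described here are 8 transcription regulators of blood stem cells, grouped as partners of ERG and not ETS genes themselves: LYL1, TAL1, LMO2, GATA2, RUNX1, HHEX, BMI1 and MEIS1. Whether each works with ERG in these cells was not tested. They were chosen by name from 19974 protein-coding genes on chromosomes 1 to 22 and X (RefSeq, GRCh38.p14). No measured value was used as a cutoff, but earlier results of these data were known. A peak was given to a gene when its summit fell inside the gene or at most 50 kb from it, and the nearest peak was taken otherwise. By this rule 5 of the 1645 peaks in the list belonged to them.

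The cells were F36P, a human erythroleukaemia line. One group carried the retroviral vector MSCV-PIG with ERG joined to an AM tag (AM-ERG, genotype ERG overexpression) and the other the empty MSCV-PIG vector (Vector, genotype WT). Puromycin selection (1 µg/ml) lasted 4 days in both, and the precipitating antibody recognises the tag, so that it reads the introduced ERG and not the cell's own. The labels give 1 library of each group. The measurement is 1 list of peaks with no values per library, so no replicate error or test between AM-ERG and Vector could be had. Which library the list comes from, and whether the Vector library was its control, is not given. The list holds no expression values, and the cell line was not checked against markers.

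As background, ERG and FLI1 bind DNA through the ETS domain, whose core motif is GGAA. In blood stem and progenitor cells they share many enhancers with TAL1, LYL1, LMO2, GATA2 and RUNX1. TAL1 and LYL1 are basic helix-loop-helix proteins that bind E-boxes (CANNTG) with an E-protein. LMO2 bridges such dimers to GATA factors in complexes that also hold LDB1. GATA2 is a zinc finger protein that binds GATA motifs. Several of these genes are themselves regulated by the same set of factors. HHEX is a homeobox repressor of early blood and endothelial cells, MEIS1 a homeobox partner of HOX proteins, and BMI1 a Polycomb subunit known for silencing the CDKN2A locus.

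Of the 8 genes, 3 had a peak: HHEX, LYL1 and BMI1. Over all protein-coding genes 3537 had one, or 17.7%. The same 3 genes had their peaks within 10 kb, where the share over all genes was 9.58%. LYL1 and HHEX had 2 peaks each, and 3.25% of all genes had 2 or more. TAL1, LMO2, GATA2, RUNX1 and MEIS1 had no listed peak inside the gene or in the 50 kb on either side. With 8 genes chosen with earlier results of these data known, these counts describe the genes and carry no test.

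The sequences at the starts of LYL1, TAL1 and HHEX are shown first, because LYL1 and TAL1 are close relatives of which only LYL1 had a listed peak at its start, and because the strongest peak of HHEX begins just beyond its printed window. Each is the RefSeq sequence on GRCh38.p14 from 250 bases before to 50 bases after the start, in the direction of transcription. LYL1 is chr19:13102809-13103108 on the minus strand, TAL1 is chr1:47232286-47232585 on the minus strand and HHEX is chr10:92689705-92690004 on the plus strand. Capitals mark GGAA, which reads TTCC where it lies on the other strand, and GATAA, which then reads TTATC.
LYL1: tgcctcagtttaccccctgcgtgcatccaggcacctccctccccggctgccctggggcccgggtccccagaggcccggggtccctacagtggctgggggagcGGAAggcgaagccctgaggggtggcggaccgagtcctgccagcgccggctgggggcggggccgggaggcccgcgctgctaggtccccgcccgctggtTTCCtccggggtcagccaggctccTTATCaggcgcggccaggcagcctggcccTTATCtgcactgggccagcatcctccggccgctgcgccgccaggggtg
TAL1: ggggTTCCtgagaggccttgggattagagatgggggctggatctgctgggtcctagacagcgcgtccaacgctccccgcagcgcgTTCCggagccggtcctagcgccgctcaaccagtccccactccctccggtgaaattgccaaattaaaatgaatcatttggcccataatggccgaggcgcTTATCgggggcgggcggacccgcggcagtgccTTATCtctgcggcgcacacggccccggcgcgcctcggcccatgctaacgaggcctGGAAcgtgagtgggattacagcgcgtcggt
HHEX: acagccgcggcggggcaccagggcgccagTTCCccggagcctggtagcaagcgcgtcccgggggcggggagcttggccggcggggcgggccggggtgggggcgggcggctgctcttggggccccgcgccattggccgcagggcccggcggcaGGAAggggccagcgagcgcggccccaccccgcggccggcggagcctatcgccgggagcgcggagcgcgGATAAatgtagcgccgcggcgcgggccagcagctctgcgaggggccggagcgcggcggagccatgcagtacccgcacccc

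LYL1, a basic helix-loop-helix factor needed for adult blood stem cells together with TAL1, had both of its peaks upstream of its start. The gene spans chr19:13099033-13102858 and is read from the higher coordinate. The first peak, chr19:13102748-13103229, had its summit 70 bp upstream of the start, outside the gene, with a fold enrichment of 6.68 over local background and a −log10 p of 26.2 (both are the authors' values for a peak). Of the 1564 peaks that chromosomes 1 to 22 and X hold, it ranked 87 by p and 229 by fold. All 300 bases of the LYL1 sequence above lie inside it. Its summit is base 181 of that sequence, with a TTCC at bases 200 to 203, a GGAA at bases 103 to 106 and TTATC at bases 224 to 228 and 253 to 257.

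The second LYL1 peak was the more significant. It lay at chr19:13103994-13104740, 1562 bp from the first by their summits and 1632 bp upstream of the LYL1 start, with a fold of 10.1 and a −log10 p of 42.5. By p it ranked 23 and by fold 32. Its summit fell inside LOC105372282, a long noncoding RNA gene, 74 bp downstream of that gene's start, and 417 bp outside TRMT1, which encodes a tRNA methyltransferase. TRMT1 is read from its higher coordinate too, so the end near the peak is its 3′ end and not its start. By position the peak could be given to any of the 3 genes. Both LYL1 peaks were also within 50 kb of NFIX, NACC1, STX10 and IER2, as the gene lies in a dense stretch of chromosome 19.

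The start sequence of LOC105372282 is shown because all of its 300 bases lie inside this stronger LYL1 peak. It is chr19:13104166-13104465 on the plus strand, from the same RefSeq table and with the same use of capitals, and it ends short of the summit. It holds 1 GGAA, at bases 294 to 297, and 1 E-box, at bases 111 to 116, and no GATAA.
LOC105372282: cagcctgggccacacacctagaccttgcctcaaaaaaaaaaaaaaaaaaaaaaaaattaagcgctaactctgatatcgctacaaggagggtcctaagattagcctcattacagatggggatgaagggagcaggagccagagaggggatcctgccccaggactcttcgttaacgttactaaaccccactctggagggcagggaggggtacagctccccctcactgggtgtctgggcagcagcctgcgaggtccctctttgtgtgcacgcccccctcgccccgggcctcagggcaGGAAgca

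HHEX held the highest fold of the 8 genes. Its main peak, chr10:92690088-92690997, lay inside the gene with its summit 700 bp downstream of the start, a fold of 11.5 and a −log10 p of 34.4. It ranked 16 by fold and 42 by p. The peak spans 133 to 1042 bp beyond the start, so it does not reach back into the sequence printed above. No other protein-coding gene had an end within 1 kb of it, and the one other such gene within 50 kb was KIF11, a mitotic kinesin gene. A second peak, chr10:92699444-92699778, lay 4012 bp beyond the 3′ end of HHEX, with a fold of 3.64 and a −log10 p of 6.93, and ranked 1279 by p. The pair thus stood far apart in the list by strength.

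BMI1 had 1 peak, below the median peak by fold and by p. It lay at chr10:22340430-22340848, 8902 bp beyond the 3′ end of the gene, with a fold of 4.35 and a −log10 p of 7.56, ranking 931 by fold and 1186 by p. Its summit was nearer to another gene, 4888 bp upstream of the start of SPAG6, which encodes a protein of the sperm flagellum. COMMD3 and the readthrough gene COMMD3-BMI1 were within 50 kb of the same peak. Neither listed start of BMI1 was covered by a peak.

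The 5 peaks were of uneven strength. Their folds ran from 3.64 to 11.5 with a median of 6.68, against a median of 4.66 over all 1564 peaks. The number of fragments stacked at the summit, recovered from fold and p, was 48 and 59 at LYL1, 41 and 18 at HHEX and 15 at BMI1, against a median of 21. The local background was 6.34 and 4.93 fragments at LYL1, which is 1.80 and 1.40 times the median of 3.52, and 2.66 to 4.22 at HHEX and BMI1. A raised background lowers the fold that a given stack of fragments yields, and its part in the LYL1 values was not tested. The read depth of the libraries is unknown.

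**Figure D1:**
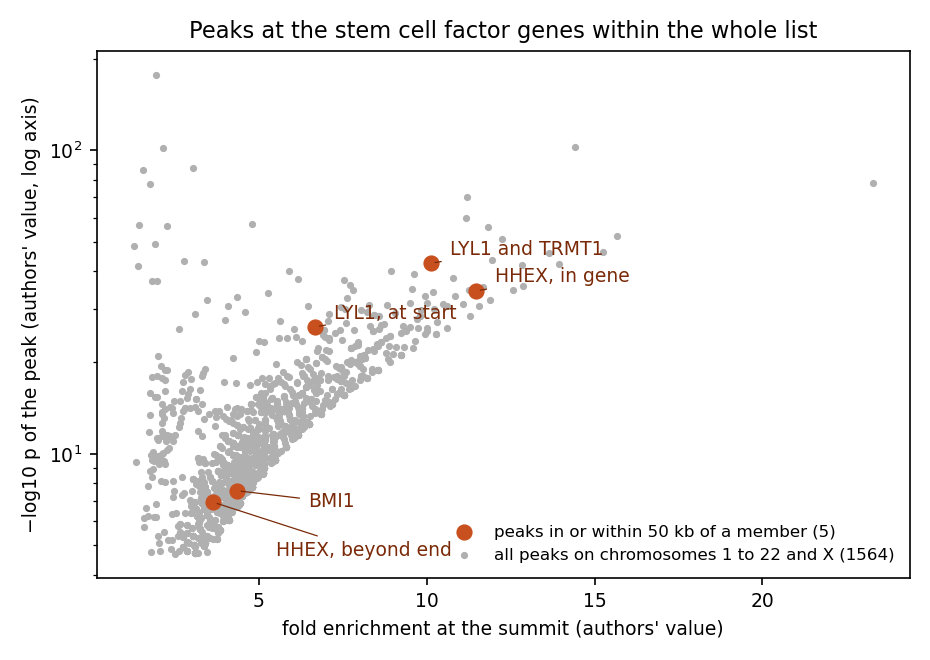
Fold enrichment (horizontal axis) against −log10 p (vertical, log axis) for the 5 peaks in or within 50 kb of a member gene (orange) and for all 1564 peaks of chromosomes 1 to 22 and X (grey). The peaks of LYL1 and the peak inside HHEX lie toward the upper right, with folds of 6.68 to 11.5, while the BMI1 peak and the peak beyond HHEX lie low, with folds of 4.35 and 3.64.

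GATA2, a zinc finger factor required for blood stem cells, stood just outside the limit. The nearest peak, chr3:128415891-128416453, lay 63.2 kb beyond its 3′ end, inside EEFSEC, which encodes a selenocysteine elongation factor, with a fold of 7.06. A run of 3 further peaks lay on the other side, upstream of GATA2 and short of RPN1, with summits 104071, 110896 and 123432 bp from the GATA2 start. Their folds were 6.25, 5.75 and 8.10. The last of them, chr3:128616330-128617125, was 3336 bp from RPN1, a gene of the oligosaccharyltransferase complex, and none of the 4 was within 1 kb of an end of any protein-coding gene. Their backgrounds of 2.09 to 3.52 fragments were at or below the median.

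Few genes had as many peaks at this distance. Within 150 kb GATA2 had 4 peaks, and 1.43% of all protein-coding genes (286 of 19974) had as many or more, with a median of 0; this window was chosen after the values were seen. As background, a distal enhancer of GATA2 in blood cells lies in the stretch between GATA2 and RPN1 and is moved next to MECOM in some myeloid leukaemias. Whether the listed peaks coincide with it was not tested. The other peak just beyond the limit was a further one near LYL1, 61.6 kb away with a fold of 5.04, and the farthest one inside it was the BMI1 peak at 8902 bp.

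**Figure D2:**
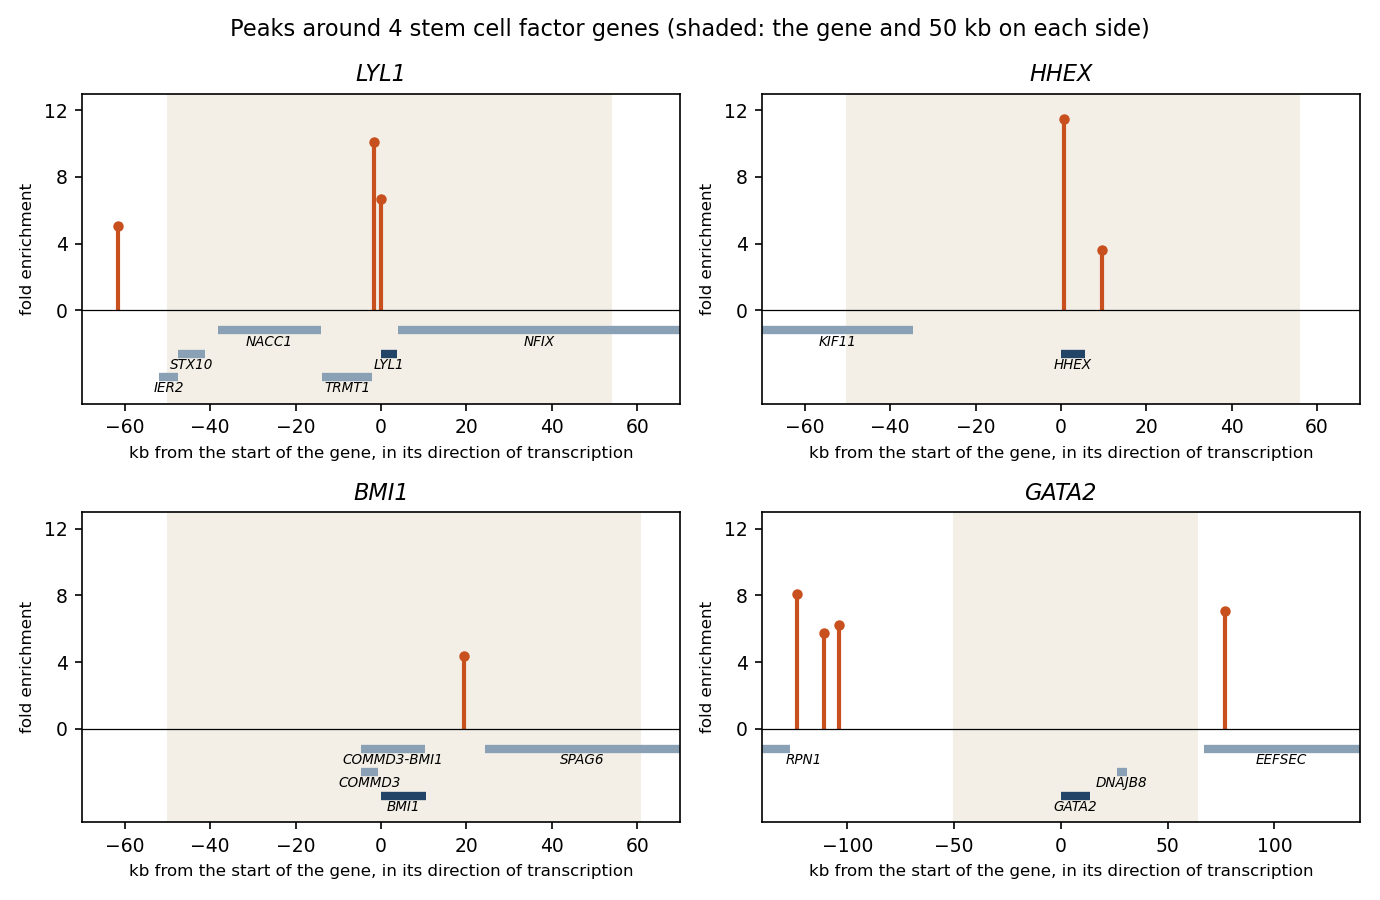
Peaks around LYL1, HHEX, BMI1 and GATA2, with distance from the start of the gene in kb (horizontal axis, in the direction of transcription) and the fold enrichment of each peak as a stem (vertical axis). Bars below the line are protein-coding genes, the named member in dark blue, and the shading is the gene with 50 kb on each side. The weaker LYL1 peak and the stronger HHEX peak have their summits within 1 kb of the gene start, the stronger LYL1 peak lies 1632 bp upstream, that of BMI1 lies between BMI1 and SPAG6, and the 4 peaks around GATA2 all lie outside the shading.

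The remaining 4 genes had no peak within 150 kb. LMO2, the bridging protein, had its nearest summit 159.8 kb away, 189 bp inside CAPRIN1, with a fold of 6.47. MEIS1 had its nearest 1003 kb away in SPRED2 (fold 4.22), RUNX1 its nearest 1271 kb away in MORC3 (fold 3.32), and TAL1 its nearest 1412 kb away in MAST2 (fold 4.08). TAL1, RUNX1 and MEIS1 thus had no peak within 1 Mb, as had 32.3% of all protein-coding genes. Each of the 4 nearest summits lay 189 to 296 bp downstream of the start of the gene named. Of all peaks on chromosomes with listed starts, 59.3% (880 of 1484) had their summit within 1 kb of a listed coding start. RUNX1 and MEIS1 are long genes, of 261.5 and 138.7 kb, so that the stretch searched for them was also the longest.

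As a group the 8 genes were spread widely in distance. The median distance to the nearest summit was 111.5 kb, against 412.3 kb for all protein-coding genes (quartiles 98.9 and 1480.0 kb). Of all genes, 25.9% had a nearest summit as far away as that of TAL1 or farther, 68.3% as far as that of LMO2 or farther, and 80.3% as far as that of GATA2 or farther. The surroundings differed too. LYL1 had 13 peaks in the gene or within 1 Mb and GATA2 had 6, HHEX had 5, LMO2 3 and BMI1 1, against a median of 1 over all genes. LYL1 had 5 other protein-coding genes in its 50 kb window, while LMO2, RUNX1 and MEIS1 had 0.

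**Figure D3:**
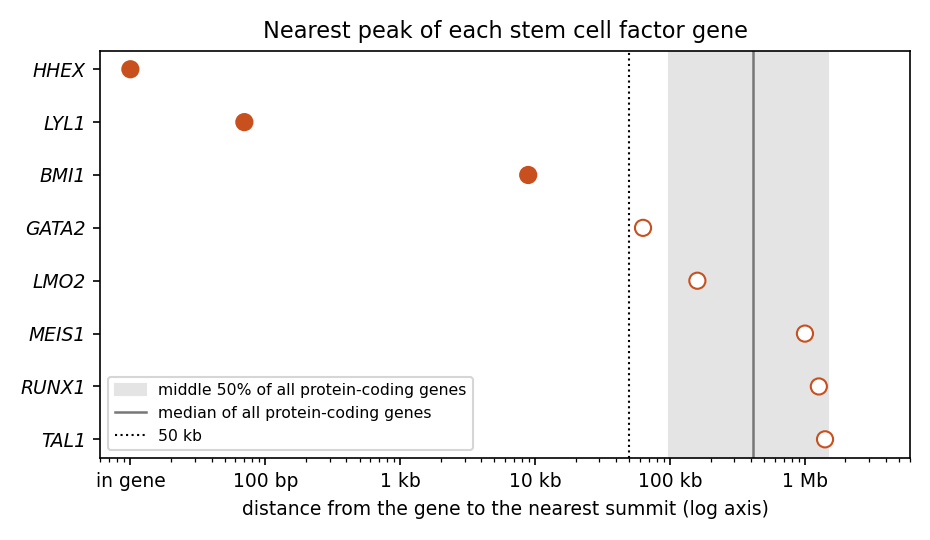
Distance from each of the 8 genes to its nearest summit (horizontal log axis; HHEX, with a summit in the gene, is set at the left). Filled points have a peak within 50 kb (dotted line) and open ones do not, the grey band and line being the middle 50% and the median of all protein-coding genes. HHEX, LYL1 and BMI1 lie left of the dotted line and GATA2 just right of it at 63.2 kb, while MEIS1, RUNX1 and TAL1 lie at 1003 to 1412 kb.

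At gene starts the picture was narrower. RefSeq starts were listed for 7 of the 8 genes, LMO2 not among them, and 2 of the 7, LYL1 and HHEX, had a summit within 1 kb of a start. Over the 15812 protein-coding genes with a listed start the share was 6.41%. Of the 10 listed starts of these genes, a peak overlapped the 300-base sequence of 1, that of LYL1, against 4.16% (916) of the 22012 such sequences of protein-coding genes. Among all peaks on chromosomes with listed starts, 59.3% (880 of 1484) had their summit within 1 kb of the listed start of any protein-coding gene. By the same measure 2 of the 5 member peaks did so, both at the start of their own gene. With 5 peaks this carries no test. For RUNX1 the only listed start, chr21:34888699, lies inside the gene, short of its upstream boundary at chr21:35049302. No sequence at that boundary was searched.

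Short motifs were then counted in those 10 sequences on both strands, beside 22012 sequences of the same length at starts of protein-coding genes. GGAA occurred in all 10, as in 95.1% of all, so its presence sets none apart. GGAAG, which contains it, was found in 73.7% of all. The longer ETS motif CCGGAAGT occurred in 1, at MEIS1, which had no listed peak, and in 5.32% of all. GATAA occurred at LYL1, HHEX and the upstream start of TAL1, against 18.6% of all. LYL1 and TAL1 each had 2 copies (3.46% of all had 2 or more), and in both genes the copies sit within 70 bases of the start, as the sequences above show.

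The E-box CANNTG occurred at the upstream starts of TAL1 and BMI1 and at the internal GATA2 start. The other listed starts, those of LYL1, HHEX, RUNX1 and MEIS1 among them, held none. It was found in 65.1% of all sequences, and its narrower form CAGNTG in 47.6%. The internal GATA2 start had 4 E-boxes, the first sharing a base with a TTCC, and 4.31% of all sequences had as many or more. The RUNX motif TGTGGT was found at MEIS1 and at the internal TAL1 start, which had 3 copies (0.104% of all had as many or more), and in 11.3% of all. TGACAG, a motif of MEIS factors, occurred at the internal BMI1 start and in 14.9% of all. A match is a string of letters and not a measured site. In the LYL1 sequence the TTCC nearest to the summit was centred 20.5 bp from it and the GGAA 76.5 bp from it.

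**Figure D4:**
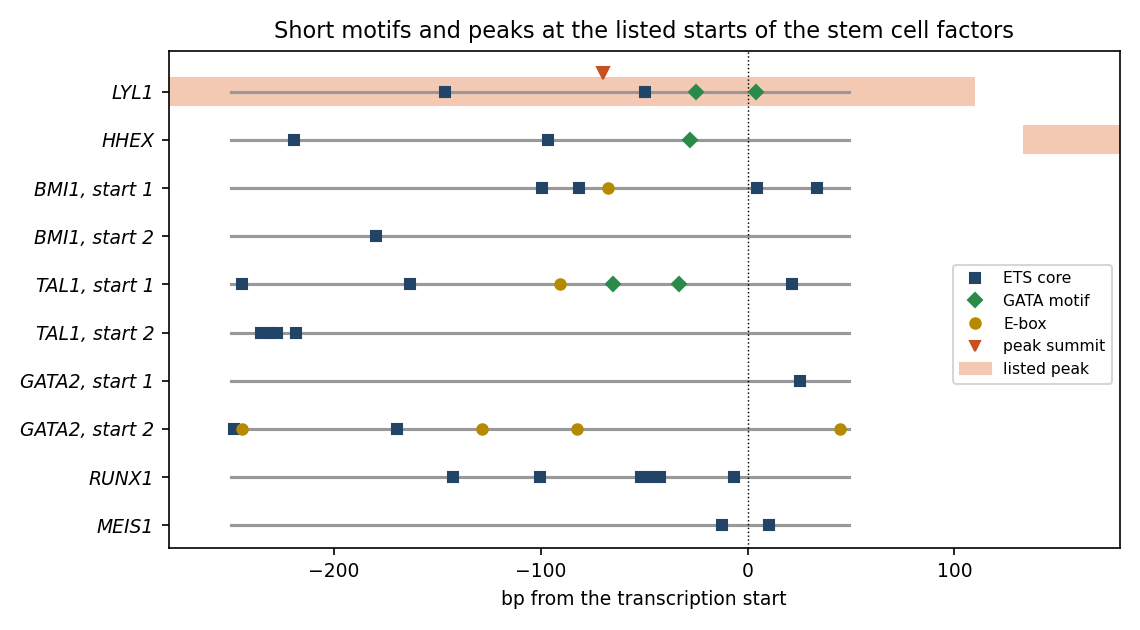
Positions of the ETS core (GGAA), the GATA motif (GATAA) and the E-box (CANNTG) on either strand in the 10 listed start regions of 7 genes, in bp from the transcription start (horizontal axis), with start 1 the more upstream of a pair. Shading marks listed peaks and the triangle a summit. Of the 10 lines, that of LYL1 is covered by a peak, whose summit lies 70 bp upstream of the start, and the HHEX peak begins 133 bp beyond the start.

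The partners with which these proteins work were taken from 7 lists of 105 genes, grouped by complex or family. Among the 97 genes other than the 8 members, 19 (19.6%) had a summit inside or at most 50 kb away and 10 (10.3%) at most 10 kb away, beside 17.7% and 9.58% of all protein-coding genes. Those shares are close to the background. Their median distance to a peak was 426.0 kb, against 412.3 kb over all genes.

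Partners of LYL1, TAL1 and LMO2 in the bHLH, LMO and LDB list had a peak at 6 of 20 genes, of which LYL1 is 1. CBFA2T3, a corepressor that joins TAL1 complexes, had 4 peaks within 50 kb. The strongest was 58 bp inside the gene's higher-coordinate boundary, with a fold of 8.07 and a rank of 162 by p. TCF4, an E-protein, held 1 of 5.82 fold deep inside the gene, 140.3 kb from its nearer end. LDB1, the adaptor that holds LMO2, had 1 of 4.66 fold, 708 bp inside the gene and also within 1 kb of an end of PPRC1.

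In the GATA list 1 of 5 genes had a peak, ZFPM1, a GATA cofactor, with a fold of 5.90 inside the gene. In the RUNX list 2 of 5 did. CBFB, a partner subunit of RUNX1, had a fold of 3.25 at a peak inside the gene, 474 bp from its nearer boundary. RUNX2 had a fold of 3.77 at a peak within 1 kb of an end of SUPT3H. Both ranked low, at 1466 and 1512 by p. The HOX and TALE list, in which HHEX was counted as a further homeobox gene, had 3 of 19. Of these HHEX alone had its peak within 10 kb, and 0 of the 17 genes of the list other than members did. The Polycomb list had 3 of 20, with BMI1 alone within 10 kb.

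Other stem and progenitor factors had 3 of 20, of which NFE2, an erythroid and megakaryocyte leucine zipper factor (fold 7.53, 3518 bp from the gene), and GFI1B, a zinc finger repressor (fold 4.07, 9774 bp), were within 10 kb. Receptors and surface proteins had 4 of 16, with SPN, the sialophorin gene (fold 3.37, inside the gene), and IL3RA within 10 kb. IL3RA, a receptor subunit for interleukin 3, lies 9176 bp from a peak of 5.17 fold at an end of SLC25A6, in a region that chromosomes X and Y share.

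**Figure D5:**
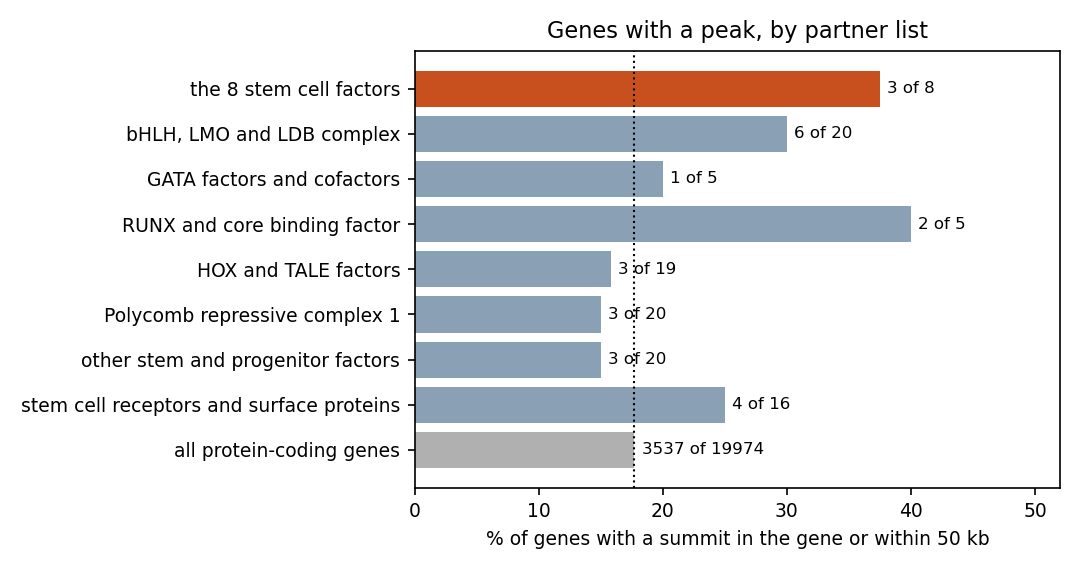
Share of genes whose nearest summit was inside or at most 50 kb away (horizontal axis, in %) for the 8 stem cell factors, each partner list and all protein-coding genes, with counts at the bars and the share of all genes as a dotted line. Lists hold 5 to 20 genes and some hold members. The 8 factors stand at 3 of 8 and the lists between 3 of 20 and 2 of 5, around the 17.7% of all genes.

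The ETS members of the same stem cell circuit bore peaks inside the gene, ERG with a fold of 11.9 (rank 20 by p) and FLI1 with a fold of 4.77 (rank 1122). AM-ERG cells also carry the introduced ERG sequence, and its part in the peak at ERG was not tested. Among the 8 genes the highest folds were 11.5 at HHEX and 10.1 at LYL1.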

How the data were processed

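AM-tag ChIP-seq of F36P cells was deposited as 1 headerless list of narrow peaks. Samples of 10000000 cells went through fixation in 1% formaldehyde, 20 min of micrococcal nuclease and precipitation from 10 µg of chromatin, per the labels' protocols. Bowtie2, MACS2 and deepTools are named with hg38, per the submitters' processing notes, with settings not given in the sources used here; which library the list comes from, and its control, is not given either. The deposited values per peak are a score, a fold enrichment (ratio to local background), the −log10 of p and of q, and the summit offset. The largest q was 0.0474, under 0.05, and the cutoff that the submitters used is not given.

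Positions are 1-based. Of 1645 peaks, 1564 on chromosomes 1 to 22 and X were used, and 81 on other sequences were left out. Genes, strands and starts come from RefSeq tables on GRCh38.p14. An end of a gene is either of its boundaries, the start side included, unless the side is named. The starts table is not complete and sequence away from it was not used. Shares over all genes stand beside counts, and no test was run. Pileup and local background at the summit were recovered from fold, taken as pileup plus 1 over background plus 1, and p as a Poisson tail, for all 1564 peaks within 0.001 in log10 p. Tested on data simulated with the same formulas, 300 of 300 peaks came back. This checks the arithmetic and not how the deposited values were made. The members and lists were chosen with earlier results of these data known. Named genes are the members, genes at their peaks or nearest peaks, up to 4 genes per list by p within 10 kb, ERG and FLI1; an item counted in the lists is not reported here by name. Peaks near GATA2 beyond the nearest were named after their values were seen. Alternatives covered window, threshold, overlap and sharing distance. Python 3.11.15, numpy 2.4.6, pandas 2.3.3, SciPy 1.17.1 and matplotlib 3.10.9 were used.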

Additional observations from a re-analysis of the deposited data

How the results depend on the processing

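The count of members with a peak was 3 of 8 in windows of 10 and 50 kb (all genes 9.58% and 17.7%) and with q under 0.01 (all genes 16.9%). It was also 3 with any overlap of the peak, for which no share over all genes is given. Without peaks on over 2 times the median background it was 3 as well (all genes 17%), and this setting alone was chosen after the data were seen. It was 4 of 8 within 100 kb (GATA2 added; all genes 25.1%) and 2 in the upper 50% of peaks by q or by fold (LYL1 and HHEX; all genes 9.68% and 10.6%). The 5 member peaks became 3 in the upper 50% by q, 3 in the upper 50% by fold, and 3 when a peak counted only for the gene with the nearest coding end, which leaves out the BMI1 peak and the LYL1 peak near TRMT1. Peaks shared with a neighbouring coding end numbered 1, and 2 at a distance of 3 kb. Within 10 kb the lists had 1 of 19 genes for HOX and TALE (HHEX), 1 of 20 for Polycomb and 2 of 16 for receptors, beside 9.58% of all genes. In the upper 50% by q they had 0 of 5 for RUNX, 1 of 19 for HOX and TALE, 0 of 20 for Polycomb and 2 of 16 for receptors, beside 9.68% of all genes. These counts are lower by construction, as fewer peaks or a smaller window were used. The other settings kept counts within 1.5 times. No paired analysis was possible because no test was run and a group is 1 library.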

Other observations

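Beyond the genes named above, 9 partner genes had their nearest summit between 10 and 50 kb away, among them TCF12 (fold 4.39), ID3 (5.17), PBX3 (4.19), PBX4 (3.45), PCGF3 (3.64), PHC3 (4.95), CEBPA (5.61) and NOTCH1 (6.64). They were named after their values were seen. For 6 of the 9 the summit lay within 1 kb of an end of another protein-coding gene, among them E2F2 near ID3, MAPKAP1 near PBX3 and GPR160 near PHC3. The peaks near TCF12, an E-protein gene, CEBPA, which encodes a myeloid factor, and NOTCH1, a receptor gene, were at no such end. Over all peaks, 59.3% (880 of 1484) had their summit within 1 kb of a listed coding start alone. The share of all peaks at either end was not computed, so the 6 of 9 is not read as a trait of these genes.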
